A study of Mus musculus with 4 samples.

Results

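The myelin structural genes, 9 of 32285 genes in the count tables, were followed through the cells of the postnatal mouse cerebellum: Mbp, Mog, Mag, Mobp, Cnp, Mal, Opalin, Cldn11 and Ermn. They were chosen by symbol, and none of them was used to sort cells into types. Whole cerebella were dissociated and sequenced cell by cell in droplets (single-cell RNA sequencing), in 4 groups of 1 library each: mice labelled Eftud2 cKO at postnatal day 14 (P14), wild-type (WT) mice at P14, Eftud2 cKO mice at P10 and WT mice at P10. Per the labels, meninges were removed, the tissue was digested with trypsin and the suspension passed a filter with a small pore size. Eftud2 encodes a GTPase of the spliceosome, and the series title names Purkinje cells as the deficient cells, while the Cre line, the deleted part of the gene and the sex of the mice are not given in the sources used here. With 1 library per group, a difference between genotypes at 1 age had no replicate check, and intervals in parentheses are 95% intervals for counting error only.

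Oligodendrocytes arise from dividing precursors, pass through a committed stage that has left the cell cycle, and then wrap axons in layers of membrane. In the cerebellum much of this wrapping falls into the first postnatal weeks and proceeds in the white matter tracts. Compact myelin holds basic proteins that press the cytoplasmic faces of the membrane together, whereas adhesion proteins, junction proteins and cytoskeletal proteins occupy the surfaces, the edges and the channels of the sheath.

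After filtering, 6148, 14876, 6417 and 13723 cells remained in P14 cKO, P14 WT, P10 cKO and P10 WT, with medians of 12209, 7699, 10872 and 8325 unique molecular identifiers (UMIs) per cell. The libraries held 91091692, 145731767, 92315263 and 158017834 UMIs in all, and pairs of libraries shared 12 to 83 cell barcodes. Eftud2 itself was at 44.8, 47.3, 55.7 and 52.1 CPM (counts per 1e6 UMIs) over whole libraries, but a count outside an unnamed deleted part checks nothing. P10 cKO stood apart in Xist, the RNA of the inactive X chromosome, at 0.528 CPM against 1220 CPM in P10 WT, and 889 and 1004 CPM in P14 cKO and P14 WT. The tables were written by Cell Ranger 7.1.0 for both P14 libraries, 7.0.1 for P10 cKO and 5.0.0 for P10 WT, per the file headers, so the genotypes shared a program version at P14 only.

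Cells were placed in a type by the number of that type's markers with a UMI. The gates held 133, 272, 108 and 457 precursors, 165, 253, 95 and 235 committed oligodendrocytes and 195, 50, 51 and 162 myelin-forming oligodendrocytes in P14 cKO, P14 WT, P10 cKO and P10 WT. The 16 myelin-forming markers summed to 10876, 10394, 10918 and 11010 CPM in myelin-forming cells, and to 3927, 3104, 3317 and 2590 CPM in committed cells. Myelin-forming cells differed in depth between the libraries, with medians of 1896, 37788, 50816 and 6482 UMIs, and 109, 16, 13 and 69 of them held fewer than 3000 UMIs. No cell passed the Schwann cell gate, and the Purkinje cell gate held 2, 0, 0 and 2 cells. Of all member UMIs in kept cells, 77.0%, 74.4%, 75.7% and 73.8% lay in the 3 stages, and 17.1%, 18.7%, 18.8% and 17.7% lay in cells with markers of several types.

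In myelin-forming cells every member was abundant in all 4 libraries. Mbp (ENSMUSG00000041607, chromosome 18, 82475146 to 82585637, plus strand, GRCm38), the basic protein that compacts the sheath and without which central myelin does not compact, was at 9957 CPM (9874 to 10041) in P14 cKO, 8484 (8342 to 8627) in P14 WT, 10550 (10412 to 10690) in P10 cKO and 11400 (11286 to 11514) in P10 WT. Mobp (ENSMUSG00000032517, chromosome 9, 120149707 to 120181484, plus strand), a smaller basic protein of compact myelin, was at 6969, 6241, 5643 and 5426 CPM in the same order. Mbp was highest in P10 WT and lowest in P14 WT, and Mobp was higher in both P14 libraries than in both P10 libraries. Mbp is a long gene with 14 protein-coding transcripts in the annotation, some of which (the golli forms) are known from neurons and immune cells, and the counts per gene do not separate them.

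Of the proteins of the cytoplasmic channels, Cnp (ENSMUSG00000006782, chromosome 11, 100574904 to 100591729, plus strand), a cyclic nucleotide phosphodiesterase that keeps cytoplasm-filled channels open, was at 5416 CPM (5354 to 5478) in P14 cKO, 5426 (5313 to 5541) in P14 WT, 5285 (5187 to 5384) in P10 cKO and 6161 (6077 to 6245) in P10 WT. Ermn (ENSMUSG00000026830, chromosome 2, 58045113 to 58052864, minus strand), which encodes ermin, an actin-binding protein of late myelination, was at 1360, 1525, 1201 and 1665 CPM. At P14 the level of Cnp did not differ between genotypes beyond counting error, while that of Ermn was lower in cKO at both ages, though not at P14 with cells thinned to 1000 UMIs (log2 ratio 0.041).

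The next 3 members encode glycoproteins of the membrane. Mag (ENSMUSG00000036634, chromosome 7, 30899176 to 30914873, minus strand), the adhesion receptor of the innermost layer that faces the axon, was at 4843, 4033, 4815 and 5247 CPM in P14 cKO, P14 WT, P10 cKO and P10 WT. Mog (ENSMUSG00000076439, chromosome 17, 37010743 to 37023398, minus strand), which sits on the outermost layer, was at 3091, 3244, 3582 and 3564 CPM. Opalin (ENSMUSG00000050121, chromosome 19, 41061710 to 41077113, minus strand), a sialylated protein specific to central myelin, was at 688 CPM (667 to 711), 306 (279 to 334), 467 (438 to 497) and 432 (410 to 455). Opalin was the member that varied most between the libraries, and P14 cKO stood highest and P14 WT lowest.

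The other members span the membrane several times. Cldn11 (ENSMUSG00000037625, chromosome 3, 31149920 to 31164324, plus strand), the claudin of the tight junctions that seal the layers of the sheath, was at 3257, 2718, 3283 and 3613 CPM in P14 cKO, P14 WT, P10 cKO and P10 WT. Mal (ENSMUSG00000027375, chromosome 2, 127633226 to 127656695, minus strand), a proteolipid that sorts cargo into lipid-rich membrane, was at 5829 CPM (5765 to 5893), 7077 (6948 to 7208), 6390 (6283 to 6499) and 8305 (8208 to 8403). Mal was lower in cKO than in WT at both ages, though not at P10 with cells thinned to 1000 UMIs (log2 ratio 0.091).

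**Figure D1:**
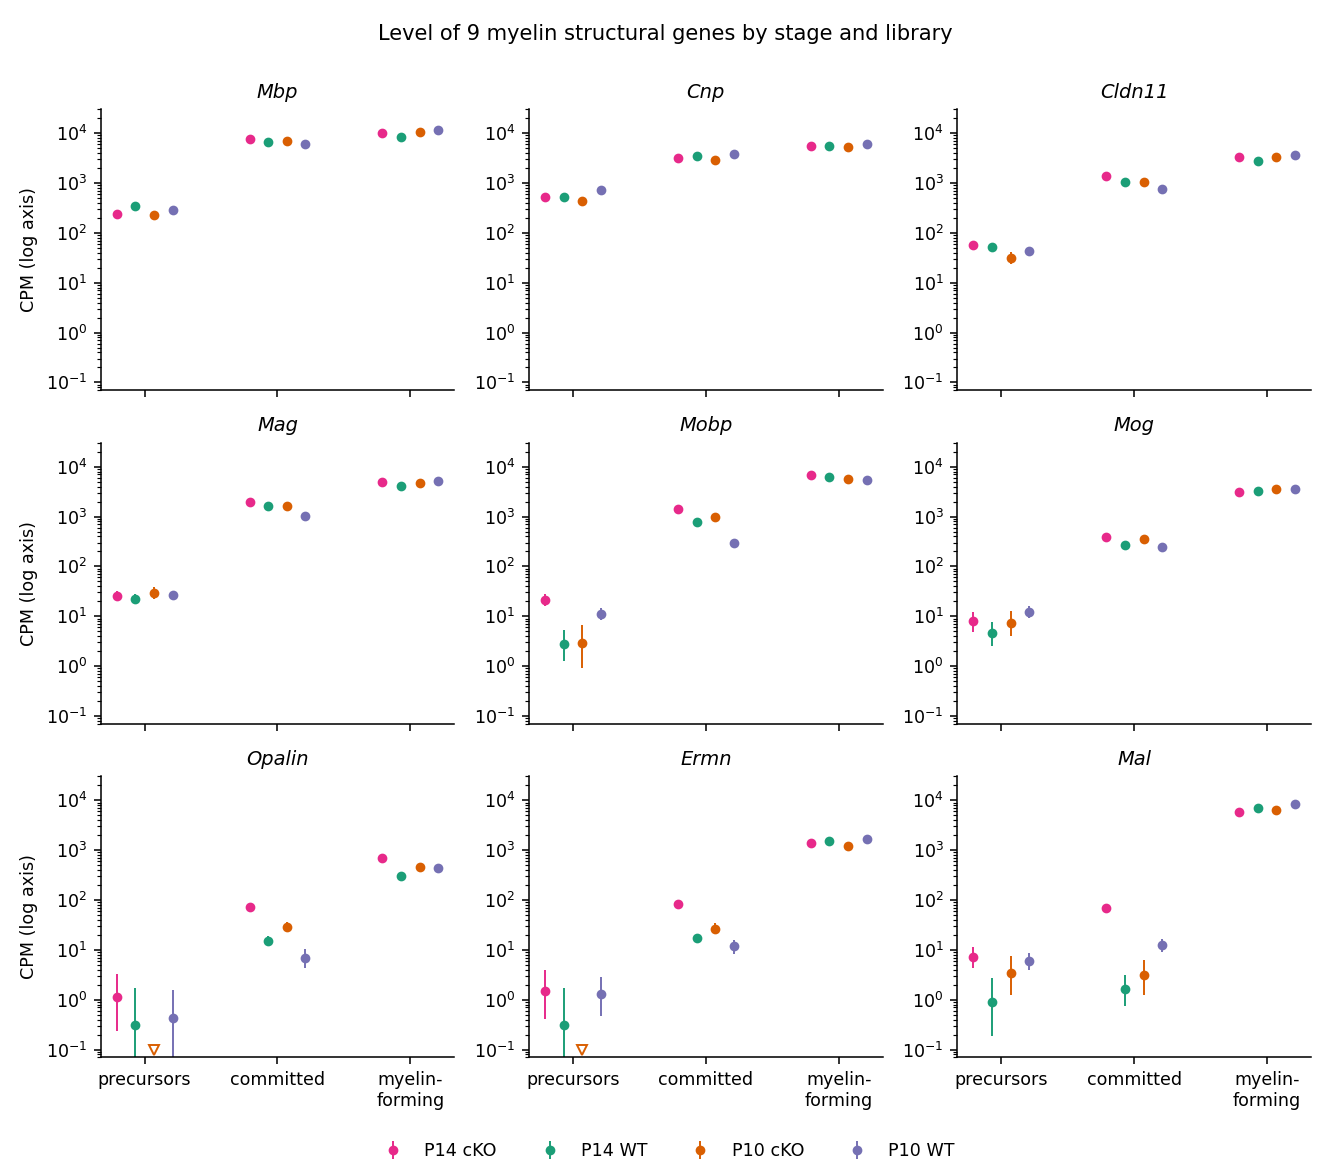
Level of each member (CPM, log axis) in precursors, committed and myelin-forming oligodendrocytes of P14 cKO, P14 WT, P10 cKO and P10 WT, as points with 95% counting intervals; an open triangle marks 0 UMIs. All 9 members are high in myelin-forming cells. In committed cells Mbp is at 53.5% to 80.1% and Cnp at 53.6% to 65.6% of that level, whereas Mal lies between 1.63 and 67.7 CPM.

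The members did not come on together. To compare them, each was set against its own level in myelin-forming cells of the same library, so that abundance did not set the order. Committed cells held Mbp at 68.8% ± 11.6 of that level (SD, n = 4 libraries) and Cnp at 60.4% ± 5.11, followed by Cldn11 at 33.5% ± 9.10 and Mag at 33.3% ± 9.58. Mobp stood at 13.9% ± 6.42 and Mog at 9.48% ± 2.44, Opalin at 5.87% ± 3.78, Ermn at 2.54% ± 2.47 and Mal at 0.345% ± 0.547. With cells thinned to 1000 UMIs, Mbp stood at 48.5%, below Cnp at 60.7%, Mobp at 8.82% and Ermn at 1.21%. The 4 libraries of different genotype and age entered these means, and their spread therefore holds more than replicate error.

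Within each library the order was nearly the same. Mbp and Cnp held the first and second place in all 4 libraries, Cldn11 and Mag the next places, and Mobp and Mog those after them, while Opalin was always 7th, Ermn always 8th and Mal always 9th. Neighbours within these pairs were not separated: Mbp stood above Cnp in 3 libraries and below it in 1, Cldn11 above Mag in 2 and below it in 2, and Mobp above Mog in 3 and below it in 1. The measure taken as the order (Mbp and Cnp first, then at the end Opalin, Ermn and Mal in that sequence) was chosen after the order had been seen. The measure held in all 4 libraries, but it had been chosen on these same libraries, so this was no test of it. It also held after the level in granule neurons, taken as free RNA, was subtracted. That subtraction started from the same sums and was no separate check. With cells thinned to 1000 UMIs the measure held in 3 of 4 libraries.

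Mal showed the sharpest switch. Its 9, 7 and 43 UMIs in committed cells of P14 WT, P10 cKO and P10 WT came to 1.63, 3.06 and 12.3 CPM, or 0.0230% to 0.148% of the level in myelin-forming cells. In P14 cKO it had 303 UMIs (67.7 CPM), of which 220 came from 1 cell. With cells thinned to 5000 UMIs, a Mal UMI was seen in 4.27%, 1.46%, 1.49% and 1.19% of committed cells in P14 cKO, P14 WT, P10 cKO and P10 WT, against 3.74%, 0.270%, 0.344% and 1.88% of granule neurons, which should lack it. Unthinned, the shares were 15.8%, 3.56%, 6.32% and 7.23% of committed cells, at medians of 26185, 23322, 26542 and 17043 UMIs, and 6.44%, 0.467%, 1.24% and 2.79% of granule neurons, at medians of 11463, 6782, 9538 and 6109 UMIs. In P10 WT the thinned share in committed cells was below that in granule neurons. The level there was above it, at 12.3 against 4.14 CPM, with 11 of the 43 UMIs in 1 committed cell. The part of free RNA was not tested.

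For Opalin and Ermn, which came next to last, few committed cells carried the RNA. After thinning, Opalin was seen in 6.84%, 2.93%, 4.48% and 3.57% of committed cells in P14 cKO, P14 WT, P10 cKO and P10 WT, against 0.504%, 0%, 0.0763% and 0.209% of granule neurons. Ermn was seen in 9.40%, 3.41%, 2.99% and 0.595% of committed cells, against 1.43%, 0.186%, 0.229% and 0.418% of granule neurons. By contrast a Cnp UMI was seen in 94.9%, 100%, 98.5% and 100% of thinned committed cells, and a Mog UMI in 41.9%, 44.4%, 46.3% and 40.5%. A thinned committed cell held UMIs of a median of 4 of the 9 members in each library, and a thinned myelin-forming cell of a median of 9, 8, 9 and 8.

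Precursors already held Cnp. It stood at 522, 536, 440 and 736 CPM in precursors of P14 cKO, P14 WT, P10 cKO and P10 WT, or 9.95% ± 1.5 of its level in myelin-forming cells (SD, n = 4 libraries), and was the first of the 9 members by that measure in all 4 libraries. Mbp was second in all 4, at 2.82% ± 0.858. Its 245, 347, 231 and 290 CPM in precursors compare with 224, 88.6, 105 and 120 CPM in granule neurons, so that in P14 cKO precursors exceeded granule neurons by little. Cldn11 followed at 1.47% ± 0.447 and Mag at 0.555% ± 0.0477, and the other 5 members stood below 0.3% on average. Some of these were close to the level in granule neurons in part of the libraries. Mog, for example, was at 7.99 CPM in precursors and 7.25 CPM in granule neurons of P14 cKO. In P14 WT, P10 cKO and P10 WT it was higher in precursors, at 4.6, 7.43 and 12.3 CPM against 2.55, 3.55 and 4.22 CPM.

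The sequence was also followed along the number of markers. Cells of the 3 stages were thinned to 5000 UMIs and set in ranges by the number of the 16 myelin-forming markers with a UMI, an alternative added after the depths had been seen. In the range of 6 to 9 markers, which held 34, 42, 13 and 28 cells in P14 cKO, P14 WT, P10 cKO and P10 WT, Mbp stood above its level in the last range of 10 to 16 markers in every library, at 122%, 146%, 139% and 130% of it. Cnp was at 76.8%, 82.8%, 78.5% and 72.6% there, Mag at 75.4%, 94.2%, 71.3% and 53.5%, and Cldn11 at 70.6%, 80.9%, 74.2% and 50.2%. Mobp stood at 46.2%, 42.2%, 50.02% and 24.6%, and Mog at 25.2%, 15.8%, 17.4% and 16.2%. Opalin was at 11.8%, 18.9%, 7.69% and 3.87%, Ermn at 8.72%, 6.63%, 7.24% and 9.67%, and Mal at 0.812%, 4.69%, 0% and 8.45%. Over 20 repeats of the thinning, Mbp stayed between 109% and 171% over the libraries, Mal between 0% and 25.1%, Ermn between 1.04% and 32.8%, Mobp between 24.1% and 75.9% and Opalin between 0% and 74.1%, so that Opalin had no fixed place among the late members by this measure. In P14 cKO the printed values of Mag, Mobp, Opalin, Ermn and Mal lay below all 20 repeats. The medians of these repeats were 88.4%, 62.9%, 42.3%, 18.9% and 10.9%. The printed value of Cnp in P10 cKO lay above its highest repeat (75.4%), and that of Cldn11 in P10 WT below its lowest (50.9%). Median repeats of Cnp were 80.8%, 75.8%, 70.1% and 81.4% in P14 cKO, P14 WT, P10 cKO and P10 WT. Those of Mag were 88.4%, 92.0%, 74.4% and 55.4%, and those of Cldn11 74.8%, 78.5%, 70.7% and 59.4%. Cnp was thus not set ahead of Mag and Cldn11 in every library by this measure. The range held 12 to 47 cells over the repeats, and the values of Mbp are relative to all RNA of these cells.

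**Figure D2:**
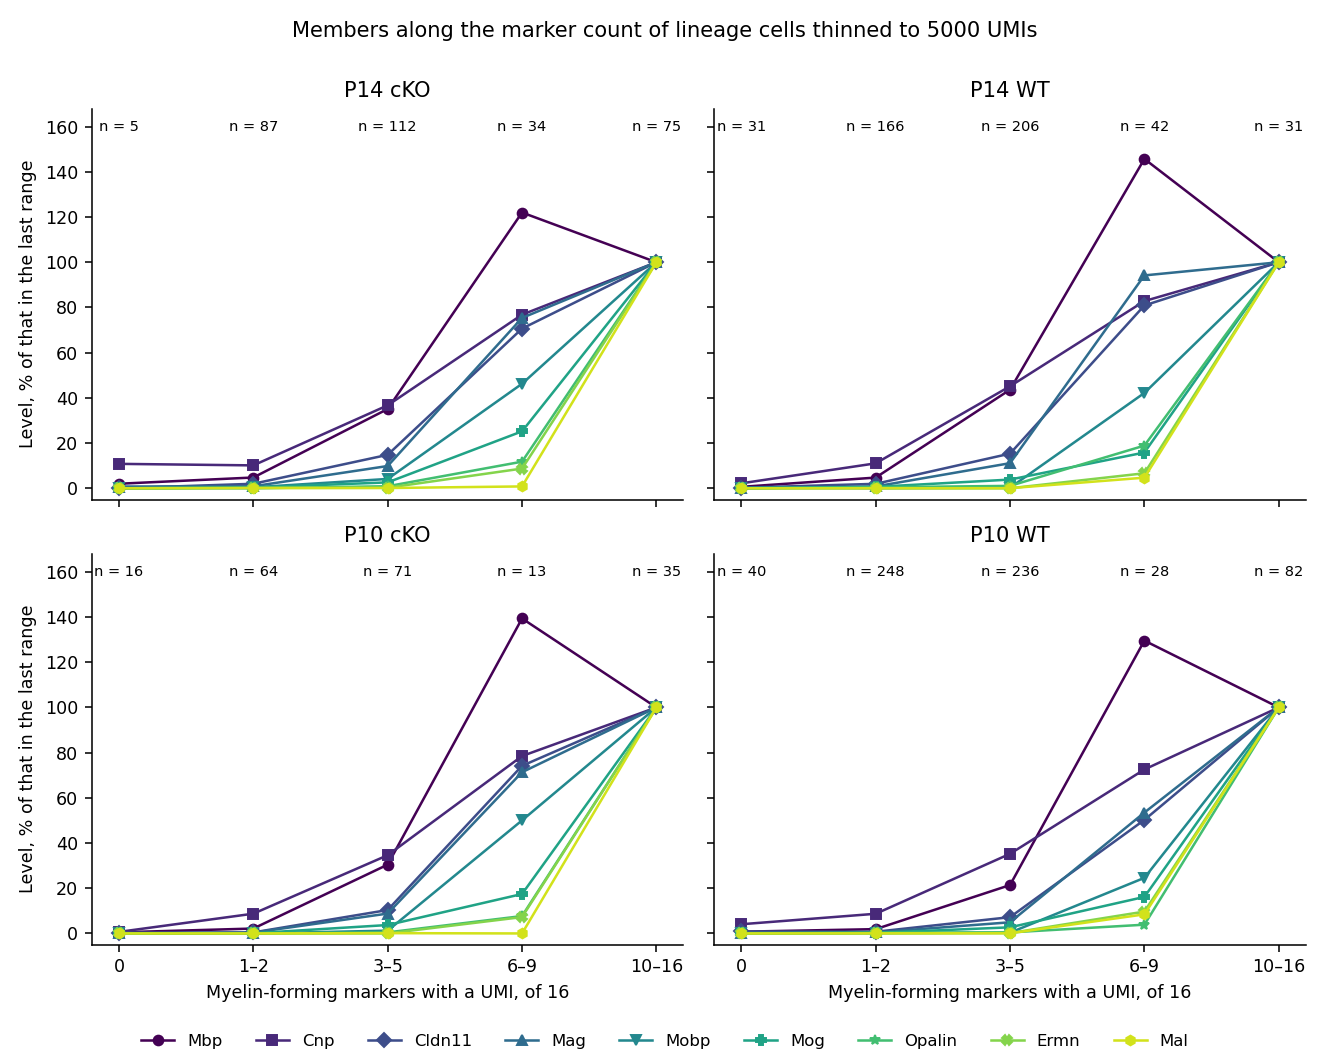
Level of each member as a percent of its level in the last range (vertical axis) against the number of the 16 myelin-forming markers with a UMI (horizontal axis), for lineage cells of each library thinned to 5000 UMIs; n is the number of cells in each range. Cnp and Mbp are present at 3 to 5 markers, Mbp exceeds its final level at 6 to 9 markers in all 4 libraries (122% to 146%), and in the thinning plotted Ermn and Mal remain under 10% until the last range, whereas over 20 repeats Ermn reached up to 32.8% and Mal up to 25.1%.

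Promoter sequence is shown for 4 members that span the order, namely Cnp at its start, Mag and Mog in its middle and Mal at its end. The sequences are the 250 bases before the start site in RefSeq (GRCm38.p6), read 5′ to 3′ on the strand of the gene, and for Mag the first of 3 listed promoters is shown. Capitals mark matches on either strand to letters bound by MYRF (CTGGCAC or CTGGTAC), a factor required for myelin gene expression, or by SOX proteins (ACAAAG or ACAATG), the family of the lineage factor SOX10.
Cnp, chr11:100574689-100574938 (plus strand): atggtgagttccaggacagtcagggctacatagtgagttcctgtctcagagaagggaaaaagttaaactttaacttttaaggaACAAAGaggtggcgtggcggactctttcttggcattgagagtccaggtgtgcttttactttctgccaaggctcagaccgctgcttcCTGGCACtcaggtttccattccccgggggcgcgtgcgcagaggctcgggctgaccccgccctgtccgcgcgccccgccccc
Mag, chr7:30914864-30915113 (minus strand): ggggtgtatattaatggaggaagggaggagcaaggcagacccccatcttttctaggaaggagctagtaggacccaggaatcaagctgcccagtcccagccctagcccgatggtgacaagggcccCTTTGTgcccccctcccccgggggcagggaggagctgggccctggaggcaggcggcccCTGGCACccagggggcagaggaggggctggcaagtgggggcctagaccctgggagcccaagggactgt
Mog, chr17:37023399-37023648 (minus strand): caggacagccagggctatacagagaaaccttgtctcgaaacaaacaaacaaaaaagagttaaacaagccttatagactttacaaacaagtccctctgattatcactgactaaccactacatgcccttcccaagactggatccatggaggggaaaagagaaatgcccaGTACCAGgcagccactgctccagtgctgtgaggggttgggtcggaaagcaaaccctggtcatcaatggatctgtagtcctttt
Mal, chr2:127656696-127656945 (minus strand): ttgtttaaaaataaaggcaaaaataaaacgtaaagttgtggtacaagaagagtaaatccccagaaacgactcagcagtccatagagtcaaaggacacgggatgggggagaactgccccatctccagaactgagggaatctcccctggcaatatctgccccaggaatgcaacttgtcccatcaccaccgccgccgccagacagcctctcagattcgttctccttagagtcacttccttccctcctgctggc
Of 8 members with promoters searched, 4 (Cnp, Mag, Mog and Opalin) held a MYRF match in the window of 300 bases around the start site, where 7.1% of 32851 promoters of that length did. A SOX match was found for 5 of 8 (Cnp, Mag, Mobp, Opalin and Ermn), against 28.6% of all promoters. A member was counted if any of its listed promoters had a match (10 promoters for the 8 members), whereas the shares are per promoter. The counts and the shares are thus not on the same footing. The MYRF matches of Cnp, Mag and Mog began 81, 68 and 83 bases before the start site, and the matches to the 2 kinds of motif did not overlap. In Mobp there were 6 SOX matches. No match of either kind was found for Cldn11 or Mal, which says only that these letters are not in the window, as a match says only that they are. The promoter of Mbp is not shown.

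Between genotypes, member RNA made up nearly the same share of all UMIs in myelin-forming cells of P14 cKO and P14 WT. The amount per cell was not compared, as the cells differed in depth. The 9 members summed to 41410 CPM (41239 to 41581) in P14 cKO and 39054 CPM (38749 to 39361) in P14 WT, a log2 ratio of cKO over WT of 0.08 (0.07 to 0.10). At P10 the sums were 41216 CPM in cKO and 45812 CPM in WT, a log2 ratio of −0.15 (−0.16 to −0.14). With cells thinned to 1000 UMIs, which left shallow cells more weight, the ratios of the sum were 0.30 at P14 and 0.13 at P10, and that of Mbp at P14 was 0.93 in place of 0.23. The members' median ratio was 0.16 at P14, with 5 higher and 4 lower, and −0.12 at P10, with 3 higher and 6 lower, where the median over all genes was −0.0012 at P14 and 0.065 at P10.

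Past 2-fold stood 1 of 9 members at P14, where 5.2% of 10617 genes with at least 20 UMIs were that much higher in cKO and 2.75% that much lower. This member was Opalin, at 3769 UMIs in 195 cells of P14 cKO and 492 UMIs in 50 cells of P14 WT, with a log2 ratio of 1.17 (1.03 to 1.31). Among cells with at least 3000 UMIs the ratio of Opalin was 1.18, and with cells thinned to 1000 UMIs it was 0.48. At a fixed depth of 5000 UMIs, an Opalin UMI was seen in 79.0% of 81 cells of P14 cKO, 39.4% of 33 of P14 WT, 74.3% of 35 of P10 cKO and 49.4% of 85 of P10 WT. At P10 the ratio of levels was 0.11 (−0.0060 to 0.23). The ratios of the other members at P14 ran from −0.28 (−0.31 to −0.25) for Mal to 0.26 for Mag and Cldn11, and none was past 2-fold at P10, where 17.5% of 10000 genes were 2-fold higher and 3.15% 2-fold lower between libraries made with different program versions. Mal and Ermn were lower in cKO at both ages, with −0.38 (−0.41 to −0.35) and −0.47 (−0.54 to −0.40) at P10 and −0.17 (−0.23 to −0.10) for Ermn at P14, although Mal at P10 and Ermn at P14 turned to 0.09 and 0.04 with cells thinned to 1000 UMIs.

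A model with terms for age and genotype, the only test of genotype that these 4 libraries allow, called none of the members. edgeR's quasi-likelihood test called 0 of 10287 genes for genotype in myelin-forming cells at an adjusted p of 0.05 (0%), with 517 genes (5.03%) at an unadjusted p under 0.05, and DESeq2 called 18 (0.175%), none of them a member. The largest fitted effects among the members were 0.60 for Opalin (adjusted p = 0.659, edgeR), −0.37 for Mal (adjusted p = 0.663, edgeR) and −0.36 for Ermn (adjusted p = 0.677, edgeR). With 1 residual degree of freedom a p that misses the threshold does not show that the genotypes were alike.

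Committed cells differed more. Of the 9 members, 7 were higher in cKO at both ages (Mbp, Mog, Mag, Mobp, Opalin, Cldn11 and Ermn), and Cnp was lower at both. The members' median ratio was 0.51 at P14 and 0.57 at P10, where the median over all genes was 0.0011 and −0.029. The share of all genes higher at both ages was not counted. At P10 the genotypes also differed in program version, so the ages are not equal repeats. Past 2-fold higher stood 3 members at P14 (Mal, Opalin and Ermn), where 3.23% of 11677 genes did, and 3 at P10 (Mobp, Opalin and Ermn), where 19.2% of 10713 genes did; 1 member, Mal, was past 2-fold lower at P10, where 5.45% of genes were. Opalin was at 73.9 CPM in P14 cKO and 15.2 CPM in P14 WT (log2 ratio 2.27, 1.93 to 2.64), and at 28.8 CPM in P10 cKO and 6.88 CPM in P10 WT (2.05, 1.37 to 2.81). Ermn was at 83.3 and 17.0 CPM in cKO and WT at P14 (2.28, 1.96 to 2.63) and at 26.6 and 11.8 CPM at P10 (1.18, 0.59 to 1.79). Mobp was at 1412 and 788 CPM at P14 (0.84, 0.79 to 0.90) and at 972 and 299 CPM at P10 (1.70, 1.60 to 1.81).

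Few cells carried these late members. Opalin reached 10 UMIs in 6 of 165 committed cells of P14 cKO and 3 of 253 of P14 WT, and in 2 of 95 of P10 cKO and 0 of 235 of P10 WT. A single cell held 65.2% of the Opalin UMIs of P10 cKO, and 1 cell held 63.4% of the Ermn UMIs of P10 WT. Mal, at a ratio of 5.30 (4.43 to 6.52) at P14, rested on 1 cell with 72.6% of its UMIs in P14 cKO, and at P10 it stood at 3.06 CPM in cKO and 12.3 CPM in WT (−1.93, −3.41 to −0.85). The sum of the 16 myelin-forming markers in committed cells was likewise higher in cKO, at 3927 CPM against 3104 CPM at P14 and 3317 CPM against 2590 CPM at P10, and its part in these ratios was not tested.

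In precursors the members were low. They summed to 889 CPM in P14 cKO and 967 CPM in P14 WT (log2 ratio −0.12, −0.20 to −0.04), and to 747 CPM in P10 cKO and 1128 CPM in P10 WT (−0.59). At P14, 4 of 9 were past 2-fold higher in cKO, where 1.36% of 11910 genes with at least 20 UMIs were, namely Mobp, Mal, Opalin and Ermn. Of these Opalin, with 3 UMIs in cKO and 1 in WT, and Ermn, with 4 and 1, lay under that minimum, so their count and the share are not on the same footing. At P10, 2 of 9 were past 2-fold lower, where 4.65% of 11883 genes with at least 20 UMIs were, namely Mobp and Ermn, of which Ermn, with 0 UMIs in cKO and 6 in WT, lay under the minimum. Mobp had 57 UMIs in P14 cKO and 9 in P14 WT (2.91, 1.95 to 4.18), but 5 in P10 cKO and 52 in P10 WT (−1.85, −3.65 to −0.66). Granule neurons held Mobp at 29.2, 3.32, 5.18 and 8.43 CPM in the same libraries, and the part of free RNA in these ratios was not tested.

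**Figure D3:**
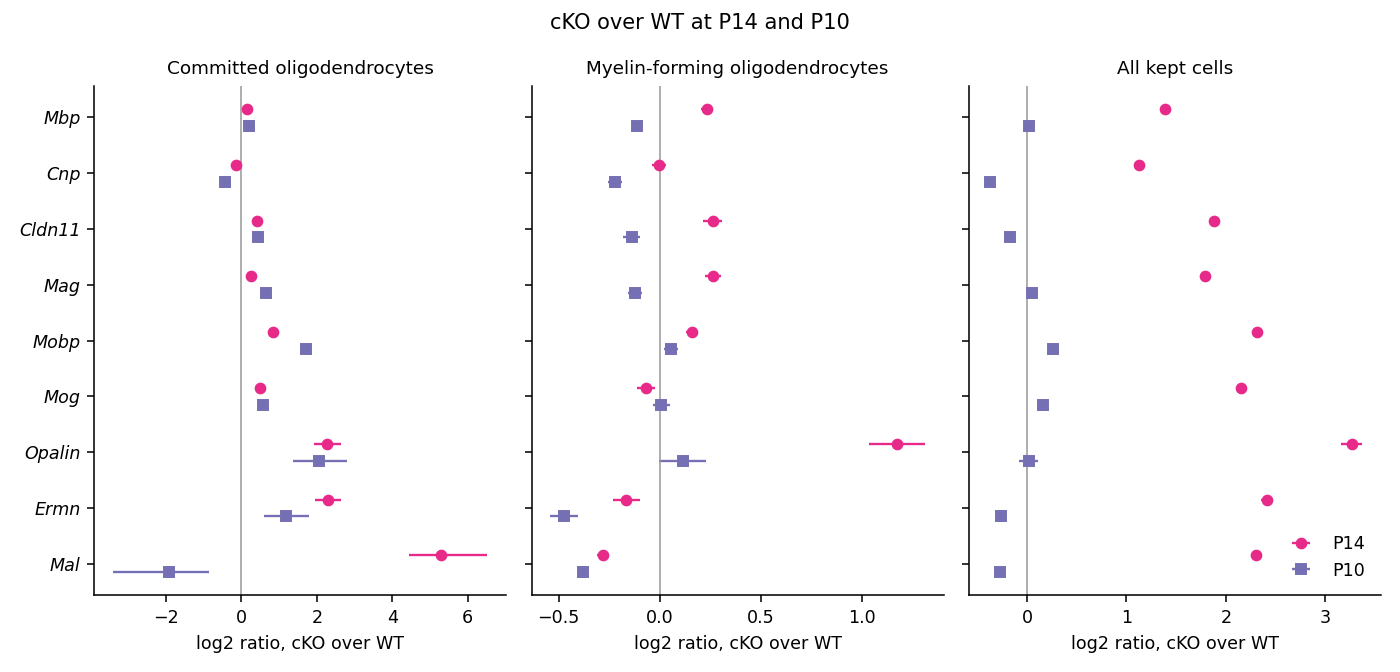
Log2 ratio of cKO over WT (horizontal axis) for each member in committed cells, myelin-forming cells and all kept cells, at P14 (circles) and P10 (squares), with 95% counting intervals; the axes differ in scale. In myelin-forming cells the ratios lie between −0.47 and 0.26 except for Opalin at P14 (1.17), while over all kept cells at P14 all 9 members lie between 1.13 and 3.27.

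Over whole libraries the members were far higher in P14 cKO than in P14 WT. They summed to 4558 CPM in P14 cKO and 1420 CPM in P14 WT (log2 ratio 1.68, 1.67 to 1.69), and 9 of 9 members were past 2-fold higher, where 7.01% of 20404 genes were that much higher and 3.79% lower. The ratios ran from 1.13 (1.11 to 1.15) for Cnp to 3.27 (3.16 to 3.37) for Opalin, with 2.30 for Mal and 1.38 for Mbp. At P10 the sums were 1815 CPM in cKO and 1899 CPM in WT (−0.07, −0.07 to −0.06), and 0 of 9 members were past 2-fold, where 26.3% of 19841 genes were higher and 13% lower. Myelin-forming cells made up 3.17% of P14 cKO and 0.336% of P14 WT, against 0.795% of P10 cKO and 1.18% of P10 WT. Committed cells made up 2.68% and 1.70% at P14. Of the 195 myelin-forming cells of P14 cKO, 109 held fewer than 3000 UMIs. Cells of this gate showed a median of 6 of the 16 markers in P14 cKO and 16 in P14 WT. Olig1, Olig2 or Sox10 was seen in 68.2% and 90% of them. From P10 to P14 the sum over whole libraries rose in cKO (log2 ratio 1.33) and fell in WT (−0.42). In such sums more cells of a type and more RNA per cell cannot be told apart, and shares of cells depend on dissection and dissociation. The additive model over both ages called 0 of 20492 genes in whole libraries (0%) with edgeR, with 289 (1.41%) at an unadjusted p under 0.05, and DESeq2 called 35 (0.171%), none of them a member. Among the members the lowest adjusted p in whole libraries was 0.894 with edgeR and 0.640 with DESeq2.

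With age, the share of member RNA in myelin-forming cells changed little in cKO and was lower at P14 in WT. In cKO the members summed to 41410 CPM at P14 and 41216 CPM at P10 (log2 ratio of P14 over P10 0.01, −0.0045 to 0.02), with 5 members higher and 4 lower. In WT they summed to 39054 CPM at P14 and 45812 CPM at P10 (−0.23, −0.24 to −0.22), with 1 member, Mobp, higher and 8 lower. The share of all genes higher or lower with age was not counted. The WT libraries were written by Cell Ranger 7.1.0 at P14 and 5.0.0 at P10, versions whose default on counting reads in introns differs, so that age and program version cannot be told apart there. Mobp was the member that was higher at P14 in both genotypes, at 0.30 (0.27 to 0.33) in cKO and 0.20 (0.17 to 0.24) in WT. Opalin was higher in cKO and lower in WT, at 0.56 (0.46 to 0.66) in cKO and −0.50 (−0.65 to −0.35) in WT. In the additive model edgeR called 0 of 10287 genes for age (0%), with 233 (2.26%) at an unadjusted p under 0.05, and DESeq2 called 4 (0.0389%), none of them a member.

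Outside the lineage most member RNA was at a low level that differed between the libraries. In granule neurons, outside the lineage, where the golli forms of Mbp cannot be told apart from free RNA, the members summed to 322, 112, 137 and 171 CPM in P14 cKO, P14 WT, P10 cKO and P10 WT. At P14 the log2 ratio of cKO over WT was 1.52 (1.48 to 1.57) there, with 9 of 9 members past 2-fold higher, where 7.78% of 16507 genes were that much higher and 1.28% lower, and the sum was higher in cKO in all 10 types outside the lineage with at least 20 cells in both libraries. At P10 the ratio in granule neurons was −0.33 (−0.40 to −0.25), with 0 of 9 past 2-fold higher, where 26% of genes were, and 2 of 9 past 2-fold lower, where 6.14% were. The sum was lower in cKO in all 9 types compared at P10. P14 cKO was thus the highest of the 4 libraries in granule neurons and P14 WT the lowest.

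The makeup of the member RNA in granule neurons differed from that in myelin-forming cells. Mbp made up 69.7%, 79.2%, 77.2% and 69.9% of the member UMIs of granule neurons in P14 cKO, P14 WT, P10 cKO and P10 WT, against 24.0%, 21.7%, 25.6% and 24.9% of those of myelin-forming cells. Mal made up 2.39%, 0.635%, 0.961% and 2.42% in granule neurons, against 14.1%, 18.1%, 15.5% and 18.1%. Mbp thus weighed more and Mal less in granule neurons than in myelin-forming cells of the same library.

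Barcodes left out for having fewer than 500 genes also held member RNA. In P14 cKO the 940 such barcodes held 34548 CPM of member RNA, of which 80.8% was Mbp and 10.6% Mobp. In P14 WT, P10 cKO and P10 WT the 401, 104 and 2301 such barcodes held 1215, 1798 and 1142 CPM, with Mbp at 69.3%, 44.6% and 70.3%. More than 10% of all UMIs were member UMIs in 114 of these barcodes in P14 cKO, against 2, 1 and 17 in the other libraries. Haemoglobin genes took 9.19%, 39.4%, 68.6% and 78.1% of the UMIs of these barcodes, and without them the members stood at 38045, 2003, 5733 and 5212 CPM.

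A larger share of Mbp was also seen in shallow cells of the myelin-forming gate. Mbp made up 53.2%, 38.0%, 45.0% and 43.6% of member UMIs in cells under 3000 UMIs, against 23.2%, 21.5%, 25.3% and 24.3% in cells with at least 3000 UMIs, in P14 cKO, P14 WT, P10 cKO and P10 WT. Mal made up 5.95%, 10.8%, 6.34% and 10.7% in the shallow cells, against 14.3%, 18.2%, 15.7% and 18.4%. The shallow cells were 109 of 195 in P14 cKO and 16 of 50 in P14 WT, but they held few UMIs and so weighed little in sums: with only the deeper cells the ratio of Mbp at P14 was 0.19 in place of 0.23.

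**Figure D4:**
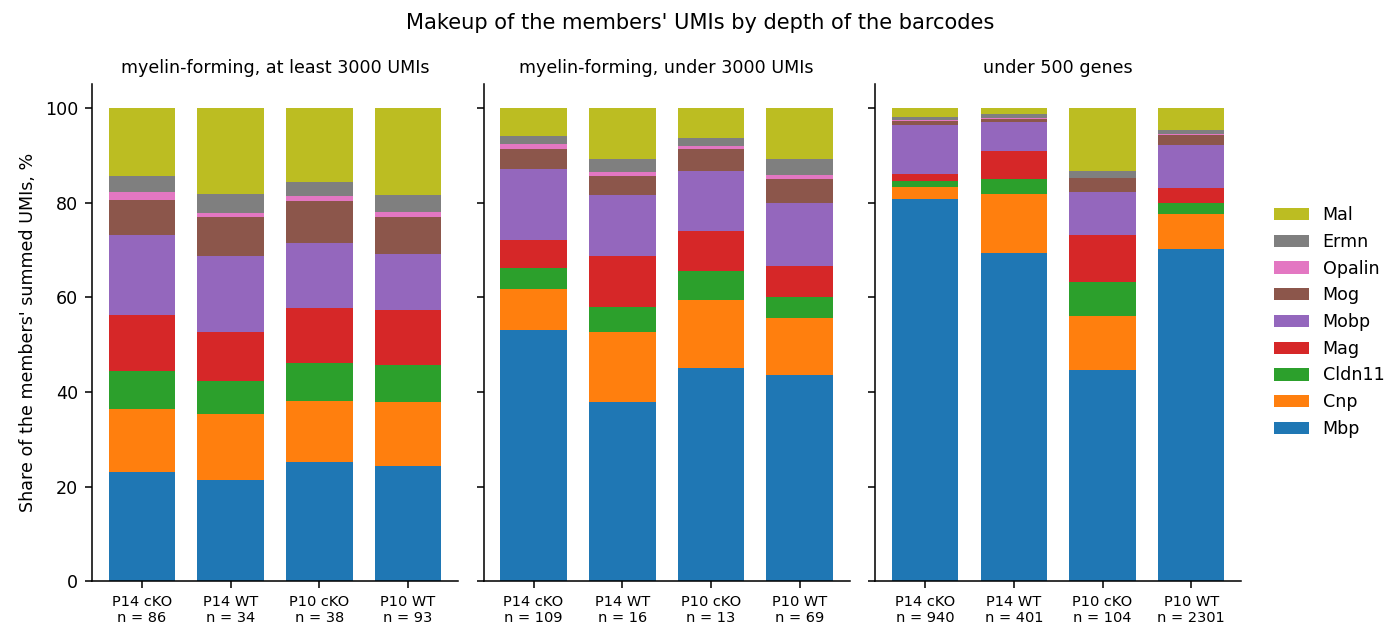
Share of each member in the members' summed UMIs (percent) in myelin-forming cells with at least 3000 UMIs, in those with fewer and in barcodes with under 500 genes, for P14 cKO, P14 WT, P10 cKO and P10 WT; n is the number of barcodes. Mbp takes 21.5% to 25.3% in the deeper cells, 38.0% to 53.2% in the shallow cells and 44.6% to 80.8% in barcodes with under 500 genes.

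Some members stood above the level of granule neurons in particular types. Cnp in astroglia was at 375 CPM (346 to 405), 366 (351 to 382), 391 (350 to 435) and 420 (393 to 449) in P14 cKO, P14 WT, P10 cKO and P10 WT, against 24.9, 11.5, 12.8 and 21.002 CPM in granule neurons, and made up 50.9%, 81.7%, 68.5% and 65.1% of the member UMIs of astroglia. It was nearly level over the libraries, while the level in granule neurons differed. With cells thinned to 5000 UMIs a Cnp UMI was seen in 73.2%, 71.8%, 81.8% and 84.9% of astroglia, against 10.3%, 4.91%, 6.37% and 9.07% of granule neurons. No astroglial cell held more than 43 Cnp UMIs. Cnp was also at 244, 150, 139 and 130 CPM in leukocytes, of which the gates held 46, 94, 35 and 134 cells. In microglia Cnp was at 58.6, 33.4, 39.3 and 57.4 CPM, and in border macrophages at 48.2, 21.2, 39.9 and 53.7 CPM. Both stood above granule neurons in each library. Mbp in leukocytes was at 389, 144, 180 and 323 CPM, against 224, 88.6, 105 and 120 CPM in granule neurons.

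Mal and Cldn11 stood out in vessels and coverings. Mal in endothelial cells was at 145 CPM (125 to 167), 115 (102 to 128), 113 (93.1 to 135) and 115 (108 to 123) in P14 cKO, P14 WT, P10 cKO and P10 WT, against 7.70, 0.710, 1.31 and 4.14 CPM in granule neurons. In fibroblasts it was at 72.2, 54.9, 67.0 and 77.5 CPM. Cldn11 in fibroblasts was at 180 CPM (159 to 204), 170 (153 to 189), 241 (216 to 268) and 209 (201 to 218), against 11.01, 2.11, 3.45 and 6.03 CPM in granule neurons, and was the member with the largest share of the UMIs there, at 41.5%, 63.9%, 67.3% and 55.0%. In microglia, Mag was at 33.8, 19.6, 15.6 and 23.9 CPM, against 12.5, 2.64, 4.19 and 6.32 CPM in granule neurons. Mog, by contrast, was at 10.7, 2.24, 1.19 and 4.25 CPM in astroglia.

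**Figure D5:**
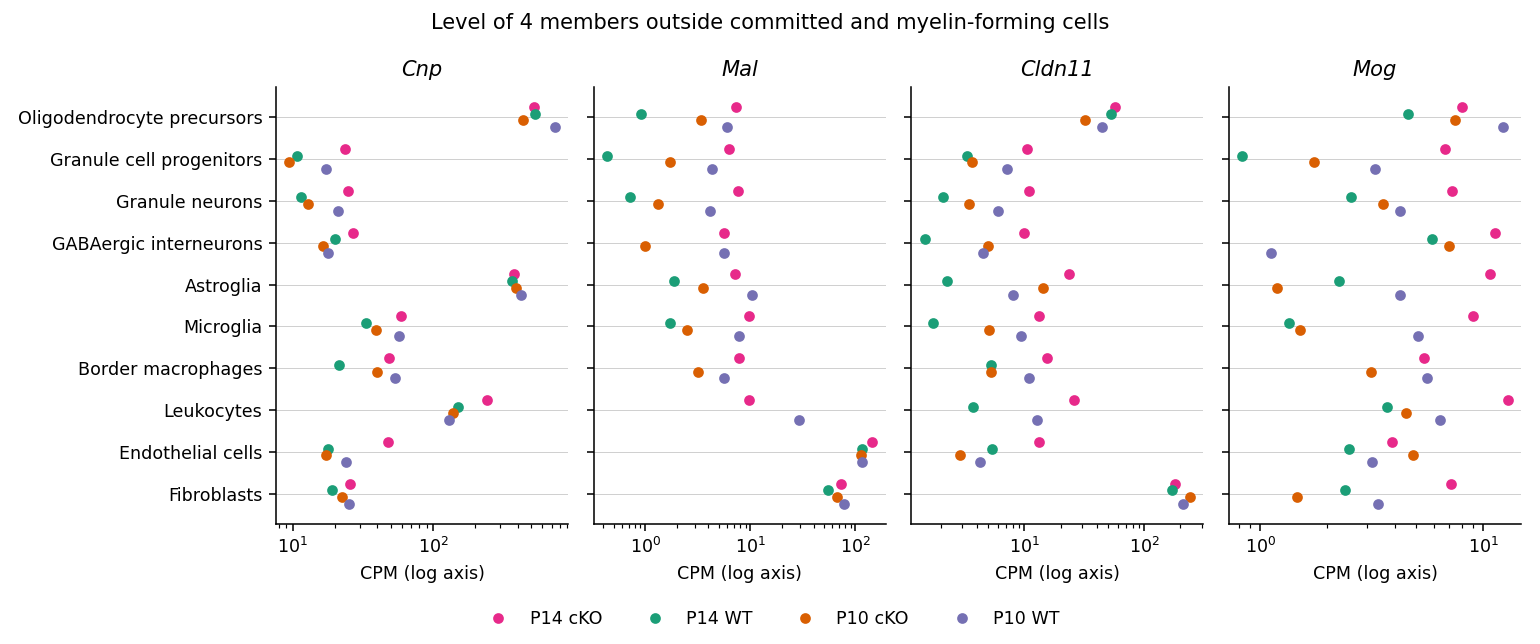
Level of Cnp, Mal, Cldn11 and Mog (CPM, log axis) in precursors and in cells outside the lineage, 1 point per library for sums of at least 20 cells and above 0 UMIs. Cnp is raised most in precursors, astroglia and leukocytes, and less in microglia and border macrophages, in all 4 libraries. Mal is raised in endothelial cells and fibroblasts and Cldn11 in fibroblasts, also in all 4 libraries. In granule neurons P14 cKO is the highest and P14 WT the lowest for each of the 4 genes.

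Among the other genes whose pattern was most like that of the 9 members over 52 sums of type and library was Nkx6-2, a homeobox factor of oligodendrocytes, with a mean Pearson r of 0.884. Cldn14, Gm33727, Tmem125, Slc34a3, Nipal4 and Gm49891 followed, at 0.873 to 0.857. Tmem125 is a marker used for the gate. The sums share libraries and are dominated by the step between lineage cells and all others, so these values only describe the pattern. Among the members the most alike were Opalin and Ermn (r = 0.960) and the least alike Cnp and Mal (r = 0.469). In committed cells Nkx6-2 stood at 15.7% ± 3.60 of its level in myelin-forming cells (SD, n = 4 libraries), close to Mobp in the order above.

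Other genes of myelin and of its makers moved in both directions between the genotypes. Of 17 other myelin proteins, 2 were past 2-fold higher and 1 past 2-fold lower in P14 cKO, where 5.2% of all genes were that much higher and 2.75% lower, with a median log2 ratio of −0.06 against −0.0012 over all genes. At P10 the counts were 1 and 2, where 17.5% and 3.15% of all genes were, with a median of −0.24 against 0.065. Nfasc, a cell adhesion protein of the paranode, was higher in cKO at both ages. It stood at 1694 CPM in P14 cKO against 796 CPM in P14 WT (1.09), and at 1438 against 549 CPM at P10 (1.39). In committed cells Nfasc was also lowest in P10 WT, at 1359 CPM against 3530, 3617 and 4045 CPM in P14 cKO, P14 WT and P10 cKO. P10 WT alone was written by Cell Ranger 5.0.0, so genotype and program version cannot be told apart at P10. Pmp22, better known from peripheral myelin, was lower, at 9.13 against 47.9 CPM (−2.38) and 13.8 against 71.1 CPM (−2.34), and Sept8, a septin of the sheath, stood at −0.92 and −1.07. Ndrg1 stood at −0.35 and −0.47, and like Mal it was low before the myelin-forming stage, with committed cells at 0.395% ± 0.267 of that level. edgeR called 0 of these 17 over both ages, and 3 of the 17 had an unadjusted p under 0.05, against 5.03% of all genes.

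Of 18 enzymes of myelin lipids, 16 had at least 20 UMIs in each library, and their median ratio was 0.01 at P14, with 8 higher and 8 lower, and −0.34 at P10, with 4 higher and 12 lower. Gal3st1, which makes sulfatide, was at 524 CPM in P14 cKO and 751 CPM in P14 WT (−0.52), and at 694 and 941 CPM at P10 (−0.44). Elovl1, a fatty acid elongase, stood at −0.39 and −0.37, Sqle, squalene epoxidase of cholesterol synthesis, at −0.24 and −0.40, and Elovl6, another elongase, was higher at 0.66 and 0.48. No enzyme was called by edgeR, and 0 had an unadjusted p under 0.05. Of 18 regulators of the lineage, 14 were measured in each library, with medians of 0.13 and 0.08. Sox10, the lineage factor, was at 260 CPM in P14 cKO and 185 CPM in P14 WT (0.49) and at 318 and 233 CPM at P10 (0.45), and Sox8, its relative, was at −0.29 and −0.24. Zfp488, a zinc finger protein of the lineage, stood at 0.56 and 1.16, and Tcf7l2, a factor that marks the committed stage, at 0.77 and 2.86. In committed cells Tcf7l2 was also lowest in P10 WT, at 582 CPM against 1406, 1248 and 1433 CPM in P14 cKO, P14 WT and P10 cKO. Here too genotype and program version cannot be told apart at P10. edgeR called 0 of the 15 regulators it tested, and 2 of the 15 had an unadjusted p under 0.05, against 5.03% of all genes.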

How the data were processed

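Single-cell libraries (10x Genomics) of 4 cerebella samples were analysed from the deposited matrices of UMI counts per gene and barcode, which are raw whole-number counts, per the file headers and their values. The headers name Cell Ranger 7.1.0 (both P14 libraries), 7.0.1 (P10 cKO) and 5.0.0 (P10 WT), whereas version 3.0.2 of that program, Seurat 4.1.3 and the build mm10 are listed, per the submitters' processing notes. Whether reads in introns were counted is not given in the sources used here, and the default differs between version 5.0.0 and the later versions. Gene positions came from GENCODE vM21 (GRCm38), which matched 32235 of 32285 gene IDs.

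Barcodes were kept with at least 500 genes, at most 20% mitochondrial UMIs and a Scrublet score (Scanpy 1.11.5) of at most 0.22. The automatic threshold marked no doublet in P10 cKO or P14 WT, so the highest automatic value of the other libraries was used for all. The 4 libraries lost 160, 519, 176 and 557 cells in this way (P14 cKO, P14 WT, P10 cKO, P10 WT). A cell entered the type with the largest share of its markers detected, with at least 3 markers; it was set aside where another family of types had at least 3 markers and more than 0.5 of that share. Of 178 markers listed for 18 types, 177 were in the files, and no member was a marker. The scoring rule was chosen after the data had been seen. Counts were summed per type and library and given as CPM of that sum, with exact Poisson intervals at 95% and, for ratios, exact conditional intervals; 0.5 UMI was added to each sum for log2 ratios. These intervals cover counting error only, and cells are not replicates. The share of all genes past 2-fold was taken over genes with at least 20 UMIs in both libraries together.

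A model with age and genotype was fitted over the 4 libraries with edgeR 4.0.16 (quasi-likelihood test, TMM, filterByExpr with a minimum count of 10, Benjamini-Hochberg adjustment, 1 residual degree of freedom), with DESeq2 1.42.0 as an alternative. Tested on simulated counts at a dispersion of 0.05 for the genotype effect in myelin-forming cells (10267 genes), edgeR recovered 94.4% of genes changed 4-fold with 8 false calls and DESeq2 70.4% with 0. For whole libraries (20372 genes) edgeR recovered 95.0% with 5 false calls and DESeq2 85.4% with 4. The common dispersion that edgeR fitted to the data was larger, at 0.106 in myelin-forming cells and 0.319 in whole libraries. Recovery at those dispersions was not simulated, so these shares do not give the power of the fits. Alternatives were 4 markers, 1000 genes, 10% mitochondrial UMIs, no doublet removal, cells thinned to 1000 UMIs, library totals in place of TMM, and genes with any UMI; cells with at least 3000 UMIs, subtraction of the granule neuron level and marker ranges were added after the data had been seen.

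The text names all 9 members, the 8 genes with the highest mean correlation of log2(CPM + 1) with them, and up to 4 genes per list with at least 20 UMIs in each library, the same direction at both ages and the largest smaller change. 1 of the 8 is not reported here. Members and lists were chosen with earlier results of these data known.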

Additional observations from a re-analysis of the deposited data

Results flagged for a closer look

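The genotypes' log2 ratio (cKO over WT) had opposite signs at P14 and P10, with intervals on opposite sides of 0, for several values; with 1 library per group, whether the ages differ was not tested. In precursors the ratio of Mobp at P14 less that at P10 was 4.76, on 57 UMIs in P14 cKO, 9 in P14 WT, 5 in P10 cKO and 52 in P10 WT. In committed cells that of Mal was 7.23, with 72.6% of the UMIs of P14 cKO in 1 cell. In myelin-forming cells the differences were 0.34 for Mbp, 0.39 for Mag, 0.40 for Cldn11 and 0.24 for the sum of the 9 members. Over all kept cells they were 1.5 for Cnp, 2.57 for Mal, 2.06 for Cldn11, 2.68 for Ermn and 1.75 for the sum.

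Member RNA was also found in barcodes outside the cells analysed. Barcodes with under 500 genes held 34548 CPM of member RNA in P14 cKO against 1215 CPM in P14 WT, and 1798 CPM in P10 cKO against 1142 CPM in P10 WT. Haemoglobin genes took 9.19% of their UMIs in P14 cKO and 39.4% in P14 WT, and 68.6% in P10 cKO and 78.1% in P10 WT. With those genes taken out the members stood at 38045 CPM in P14 cKO and 2003 CPM in P14 WT, and at 5733 CPM in P10 cKO and 5212 CPM in P10 WT.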

How the results depend on the processing

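Thinning cells to 1000 UMIs, which gives shallow cells more weight, changed most. Ratios of cKO over WT in myelin-forming cells then turned to 0.041 for Ermn at P14, and at P10 to 0.13 for the sum, 0.10 for Mbp, 0.14 for Mag, 0.055 for Cnp, 0.091 for Mal and 0.33 for Cldn11; the sum at P14 was 0.30. The sum in myelin-forming cells of P14 cKO was 50571 CPM thinned, 41593 CPM with 4 markers, 41218 CPM with 1000 genes, 41141 CPM with 10% mitochondrial UMIs and 41208 CPM with at least 3000 UMIs per cell. The P14 ratio of the sum in granule neurons was 1.94 thinned, 1.46 with 1000 genes and 1.47 with at least 3000 UMIs. The order of onset held in 4 of 4 libraries except for 3 of 4 when thinned. DESeq2 called 18 genes for genotype and 4 for age in myelin-forming cells and 35 for genotype in whole libraries, and edgeR with genes with any UMI called 19, 9 and 0, against 0 with the settings reported; the cause was not tested, and no member was called under any setting. No paired analysis was possible because the labels carry no replicate numbers and each group is 1 library. Leaving out a library leaves no residual degree of freedom and was not run. Members with few UMIs (Mal, Opalin and Ermn before the myelin-forming stage) are limited by depth.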
